A study of Mus musculus with 16 samples.

Results

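RNA levels were described in B cells from the spleens of Flox mice, named for a floxed miR-221/222 locus. The description covers the 4 RNA-seq libraries labelled Flox, of 16 samples in all, and the columns of the deposited table that hold them name them WT. The other 12 samples, which are RNA-seq of cells lacking miR-221 and miR-222 and Ago2 HITS-CLIP of both genotypes, were not used, and no genotype is compared with another here. The strain is given as C57B6L/J. Cells were kept in 96 well plates for 4 days with an antibody to CD40 at 500 ng/ml, IL-4 at 25 ng/ml and IL-21 at 10 ng/ml, all 4 libraries alike, and RNA was taken with Trizol. The labels give neither the age nor the sex of the mice, nor any Cre allele, and they do not say whether each library came from its own mouse. Spread between libraries therefore may be technical. There is no unstimulated sample, so nothing below says what the culture turned on.

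A resting B cell that receives CD40 and IL-4 signals, as a T helper cell gives them, grows, enters the cell cycle and may exchange the constant region of its antibody heavy chain by class switch recombination. In mice IL-4 steers that exchange to the IgG1 and IgE constant genes. IL-21, a product of T follicular helper cells, acts through STAT3 and can favour both germinal centre and plasma cell programmes. Plasma cells keep the B lineage factors Pax5 and Bach2 low and express Prdm1, Xbp1 and Irf4.

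Each gene is one row of the table, and its level is a normalized count, the number of reads divided by a size factor of the library. A row counted as expressed where its mean over the 4 libraries was at least 10 normalized counts. Values after ± are the SD over n = 4 libraries, and CV is that SD as a percent of the mean. Medians of gene lists are over their expressed members. Libraries Flox 1 to 4 held 39616596, 33463898, 25421025 and 28581592 reads in gene rows, so 1 read was worth 0.751, 0.873, 1.16 and 1.03 normalized counts. Over the 9673 protein-coding rows with a mean of at least 100, Pearson's r between log2 levels of a pair of libraries ran from 0.985 (Flox 1 and Flox 4) to 0.997 (Flox 3 and Flox 4). These pairs differed by over 2-fold in 51 and in 4 rows. Between these lay Flox 1 and 2 at 0.994, with 21 such rows, and Flox 2 and 3 at 0.993, with 12.

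The 4 markers of an activated B cell were read in every library. Cd79a, a signalling chain of the B cell receptor, was at 12186, 11819, 14173 and 16059 normalized counts in Flox 1 to 4, rank 260 of all rows. Pax5, the B lineage commitment factor, was at 2136, 1926, 1591 and 1649.9, rank 3991. Ighg1, the IgG1 constant gene, was at 98496, 103908, 102410.0 and 100480.0, rank 13, and its CV of 2.32% was the smallest of the 10 antibody constant rows. Mki67, a marker of cycling cells, was at 24209.8, 20875, 18040.0 and 16513, rank 141. Cd79a was highest in Flox 4, and Pax5 and Mki67 were highest in Flox 1. Ranks are of reads and favour long transcripts, since no transcript lengths were used here. They do not order genes by molecules per cell.

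The 4 libraries read 18613, 18829, 18140 and 18253 rows, a mean of 18459 ± 319 of 43432. Of all rows, 21722 had no read in any library, 15834 were read in all 4, and 13089 (30.1%) were expressed. Among protein-coding rows 11563 of 21678 (53.3%) were expressed, with a median level of 1025 normalized counts, and 6123 were listed at 0. The reads were spread over many genes. The 10 highest rows of each library held 6.27 ± 0.75% of its reads, the 100 highest 20.1 ± 1.0%, and 948 ± 25.6 rows were needed to reach 50%. The 434 protein-coding rows at 10000 or more held 33.7% of reads, and the 5427 rows from 1000 to 10000 held 55.2%.

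**Figure D1:**
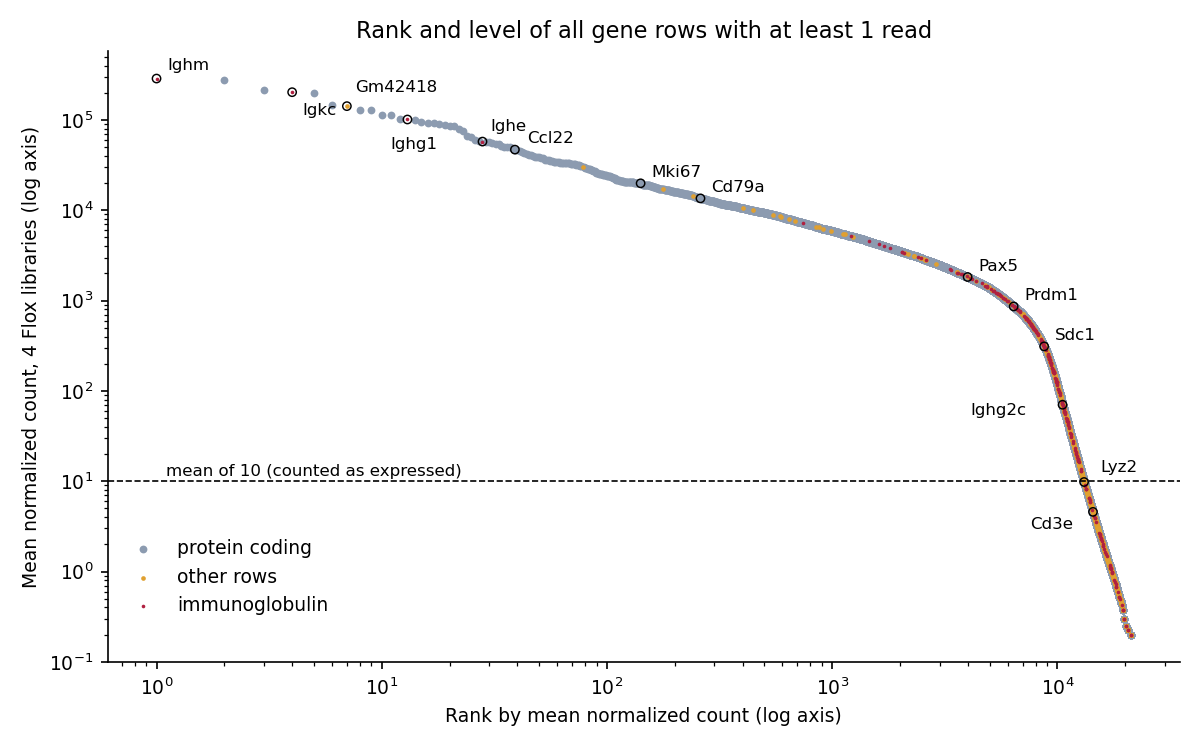
Mean normalized count (log axis) of each row with at least 1 read, against its rank (log axis), coloured by kind of row, with 14 rows named and a dashed line at the mean of 10 that defines an expressed row. Levels fall slowly over the highest ranks and steeply at the lowest; Ighm lies at rank 1, and Cd3e, a T cell gene, lies under the line.

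Protein-coding rows took 95.7 ± 0.62% of reads. Antibody constant genes, annotated as a class of their own, took 1.86, 1.93, 2.47 and 2.71% in Flox 1 to 4, from 10 rows that were all expressed. Antibody variable genes took 0.386 ± 0.079%, with 185 of 213 rows expressed. Long intergenic RNA took 0.695 ± 0.124%, and 1 row, Gm42418, accounted for most of it. Rarely expressed classes were processed pseudogenes, with 326 of 5307 rows expressed, and miRNA gene rows, with 16 of 1900.

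The protein-coding rows with the most reads belonged to antigen presentation, protein synthesis, the mitochondrion and the cytoskeleton. Of the 25 highest, 5 carry peptides to T cells: Cd74, H2-Aa, H2-Ab1, H2-Eb1 and B2m. Cd74, the invariant chain that guards the class II groove, was the highest at 252780.0, 246880.0, 290053 and 328684 normalized counts. Another 9 serve translation, among them the elongation factors Eef2 and Eef1a1, the ribosomal proteins Rpl4, Rps3, Rpl13a, Rpl8 and Rplp0, and the ribosome-bound scaffold Rack1. Eef2, which moves the ribosome along the messenger, was at 187281, 201257, 207684 and 202524, close to even over the libraries. The rest were the mitochondrial mt-Co1, mt-Nd1 and mt-Cytb, the chaperones Hsp90ab1 and Hsp90b1, nucleolin (Ncl), the cytoskeletal Tmsb4x, Actb and Tubb5, the lysosomal membrane protein Laptm5, and Pou2af1. Pou2af1 (OCA-B), the coactivator that the octamer factors use at antibody promoters, was at 57577, 54027, 58227 and 60880.4 and was the highest transcription regulator among the listed B lineage factors.

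Antibody heavy chain RNA was mostly of 3 classes. Ighm, the IgM constant gene (chromosome 12, 113418558 to 113422730, GRCm38, minus strand), was the highest row of the whole table at 214215, 210799, 341279 and 384980.0 normalized counts. Its level in Flox 3 and 4 lay above that in Flox 1 and 2. Ighe, the IgE constant gene (chromosome 12, 113269260 to 113273248), was at 57365, 51182, 59088 and 63098, so IgE transcripts were plentiful in every library. Of all heavy constant reads, Ighm held 57.4, 57.2, 67.4 and 69.8%, Ighg1 (chromosome 12, 113325240 to 113330523) held 26.4, 28.2, 20.2 and 18.2%, and Ighe held 15.4, 13.9, 11.7 and 11.4%. The shares of Ighg1 and Ighe were both higher in Flox 1 and 2 than in Flox 3 and 4. Their levels did not follow the shares: that of Ighg1 was nearly the same in all 4 libraries, and that of Ighe was higher in Flox 3 and 4 than in Flox 1 and 2. In bulk RNA, fewer cells of a type and less RNA per cell cannot be told apart. Reads over a constant gene can come from the rearranged antibody messenger or from the germline transcript that precedes switching, and row totals do not separate them.

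The other 5 heavy constant genes were scarce. Ighd, which is spliced from the same precursor as Ighm in mature B cells, was at 2045 ± 323 normalized counts and held 0.474 ± 0.148% of heavy constant reads. Ighg2b was at 471 ± 121, Igha at 294 ± 74.1, Ighg3 at 211 ± 57.0 and Ighg2c at 70.3 ± 32.6, each at a mean of 0.106% or less of heavy constant reads. All 5 were read in every library. Among light chains the kappa gene Igkc was at 172582, 187494, 211948 and 241219 and the lambda gene Iglc2 at 6448, 6553, 8318 and 7676, which made Igkc 96.5 ± 0.30% of these 2 light constant rows. Both light chain genes were highest in Flox 3 or Flox 4, as Ighm was. Constant genes Iglc1 and Iglc3 were not matched to a row.

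**Figure D2:**
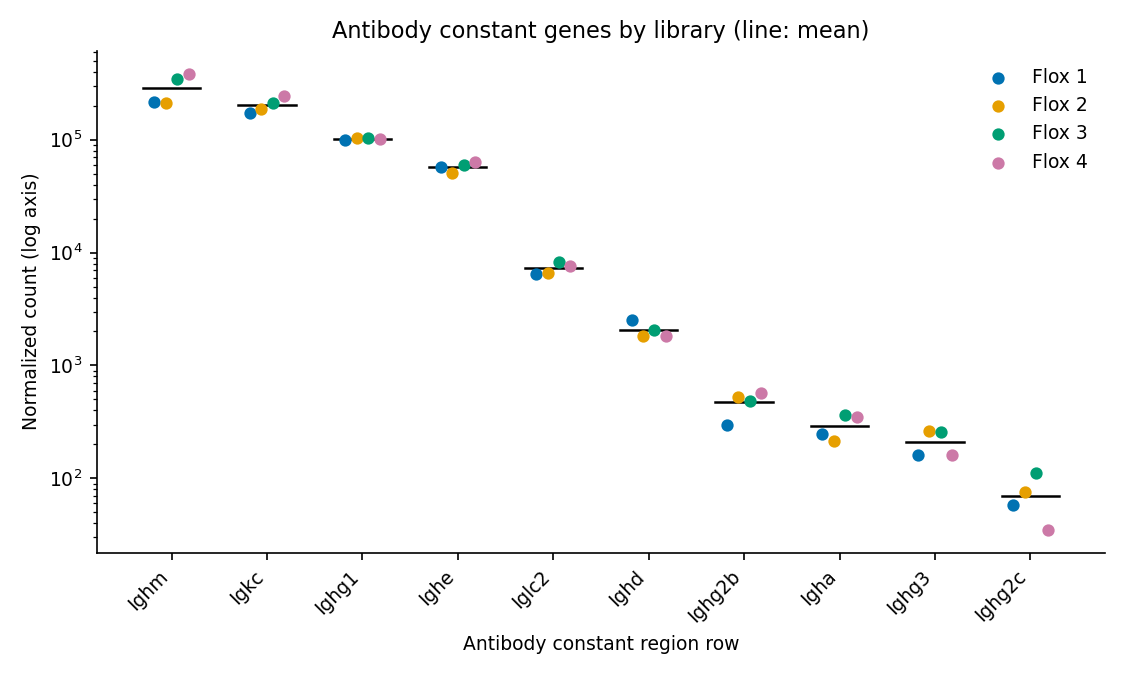
Normalized count (log axis) of the 10 antibody constant rows in each of the 4 Flox libraries, ordered by mean, with the mean as a line. Ighm, Igkc, Ighg1 and Ighe lie far above the other 6, and the 4 points of Ighg1 nearly coincide.

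Variable gene reads were spread over many segments. Of 115 heavy variable rows 91 were expressed, and of 97 kappa variable rows 91 were. Ighv1-26, the highest heavy segment, held 5.46 to 7.03% of heavy variable reads in a library, and the 10 highest together held 39.6 ± 1.5%. Igkv10-96, the highest kappa segment, held 5.77 to 7.19% of kappa variable reads, and the 10 highest 42.6 ± 0.94%. No single segment dominated either locus. Iglv1 held 69.5% of the reads of 3 lambda rows. The 5 highest variable rows were Igkv10-96 at 4639, 4655, 5755 and 5632, Igkv6-15, Igkv1-117, Igkv1-135 and Iglv1, and each was lower in both Flox 1 and Flox 2 than in Flox 3 and Flox 4. The median CV was 24.2% over the 139 variable rows with a mean of at least 100, beside 7.58% for protein-coding rows. Near-identical segments share reads, so values of single segments are uncertain.

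All 18 genes of the B cell receptor and coreceptor list were expressed, with a median of 7018 normalized counts where all expressed rows had 822. The signalling chains Cd79a and Cd79b carry the antigen signal inward; Cd79b was at 23102, 25763, 26998 and 26769. Ms4a1, which encodes CD20, was at 14192, 12927, 14533 and 13614, and the inhibitory receptor Cd22 was at 13872, 11957, 12789 and 13069.9. The CVs of Cd79b, Ms4a1 and Cd22 were 5.10 to 6.96%. Downstream, the kinases Syk, Lyn and Btk were at 2639 ± 165, 2172 ± 111 and 3244 ± 396, the adaptor Blnk at 6003 ± 332 and the lipase Plcg2 at 8033 ± 319. At the low end stood Cr2, the complement receptor CD21, at 188, 151, 260.5 and 198, and the inhibitory Fc receptor Fcgr2b at 454 ± 59.2.

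Of 19 B lineage transcription factors 18 were expressed, with a median of 4309 normalized counts, and Mef2b, a germinal centre factor, was at a mean of 0.425. Mef2c, which acts downstream of antigen and CD40 signals, was at 41096, 40408, 36378 and 36397. Irf8, Tcf3 (E2A) and Ikzf1 (Ikaros) followed at 13185 ± 1488, 13053 ± 458 and 12809.7 ± 1326. The early lineage factor Ebf1 was at 2074 ± 232, near Pax5 at 1826 ± 253 and Bach2, which holds back plasma cell genes, at 1296 ± 120.4. Foxo1 was at 4322 ± 187 and Spib at 10961 ± 229. Every one of the 18 expressed factors was read in all 4 libraries.

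Start regions of the receptor genes held few CG dinucleotides, which are rare in mouse DNA outside unmethylated start regions. Promoters, taken as 250 bases before to 50 after the RefSeq start (GRCm38.p6), were matched for 16698 of 21678 protein-coding rows (77.0%), and for 15 of the 18 receptor genes. The 15 had a median of 8 CG, and 10 of them had fewer than 10, as did 16.3% of the 9347 matched expressed rows, whose median was 21. Few CG were not particular to this list. The median was 7.5 for homing receptors, for cytokines and chemokines and for interferon response genes, and 25 for mitosis genes. Below are the promoters of Cd79a, with 8 CG, and of Eef2, with 34, both from highly expressed genes; capitals mark CG. Cd79a lies on the plus strand of chromosome 7 (chr7:24897247-24897546) and Eef2 on the plus strand of chromosome 10 (chr10:81176381-81176680).
Cd79a: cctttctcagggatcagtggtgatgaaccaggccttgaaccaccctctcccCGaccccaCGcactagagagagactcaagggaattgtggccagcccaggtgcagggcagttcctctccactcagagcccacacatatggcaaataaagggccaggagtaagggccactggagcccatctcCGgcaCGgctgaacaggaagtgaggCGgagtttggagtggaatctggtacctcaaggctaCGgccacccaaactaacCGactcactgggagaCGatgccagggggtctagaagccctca
Eef2: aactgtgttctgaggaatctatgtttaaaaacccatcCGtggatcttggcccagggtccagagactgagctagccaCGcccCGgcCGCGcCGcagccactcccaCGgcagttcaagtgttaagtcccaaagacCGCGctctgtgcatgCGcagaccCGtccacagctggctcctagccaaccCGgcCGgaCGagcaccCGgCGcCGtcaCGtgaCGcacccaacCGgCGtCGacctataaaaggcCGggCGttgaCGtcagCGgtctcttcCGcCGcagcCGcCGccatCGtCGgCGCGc

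All 24 genes of the CD40 and NF-kB list were expressed, with a median of 2754 normalized counts. The receptor Cd40 itself was at 2146, 1998, 1868 and 2012. The NF-kB precursors Nfkb1 (p105) and Nfkb2 (p100) were at 25219.6, 21272, 19171 and 19723 and at 14103, 14282, 14153 and 14923. Nfkb2 was near even, while Nfkb1 was highest in Flox 1. Traf1, an adaptor and NF-kB target gene, was at 11260.5 ± 285, the feedback inhibitors Tnfaip3 (A20) and Nfkbia at 8042 ± 489 and 6469.8 ± 590.3, and Rela and Relb at 2539 ± 88.3 and 2019.7 ± 189. Rel, which encodes c-Rel, had the widest spread of the list at 4384, 4916, 3192 and 2940.2, with both Flox 3 and Flox 4 below Flox 1 and 2. Lowest was Nfkbiz at 366 ± 42.0. The costimulatory ligands Cd80 and Cd86, which activated B cells show to T cells, were at 2288 ± 375 and 1380.3 ± 118.

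Genes of IL-4 and STAT6 signalling stood high: 15 of 16 were expressed, with a median of 5673 normalized counts. Il4ra, the receptor chain, was at 22886, 19844, 21194 and 21926, with its partner Il2rg at 4139 ± 278 and the kinases Jak1 and Jak3 at 8652 ± 557 and 2071 ± 138. Stat6, the factor IL-4 activates, was at 5475 ± 276. Known IL-4 target genes took many reads. Fcer2a, the low affinity IgE receptor CD23, was at 33151, 31435, 33235 and 32994, and Il4i1, a secreted amino acid oxidase, was at 31090.4, 31407, 36107 and 39149. Ccl22, a chemokine that draws T cells bearing CCR4 (chromosome 8, 94745590 to 94751699), was at 61511, 54486, 34106 and 37899 with a CV of 27.9%, the highest among list members with a mean of at least 100. Flox 1 and 2 lay above Flox 3 and 4 for Ccl22. Ccl17, the other ligand of CCR4, was at a mean of 5.35 and so below the level used for expressed rows. Socs1, Socs2 and Cish, which damp cytokine signals, were at 1600.3 ± 103, 15715 ± 301 and 5673 ± 304.

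On the IL-21 side 10 of 11 genes were expressed. Il21r was at 18509.6, 18620.1, 19375 and 18994 normalized counts with a CV of 2.08%, Stat3 at 7458, 6889, 7344 and 7506, and the kinase gene Pim1 at 14576, 15599, 15767 and 16415. Each was near even over the libraries, and the CVs of Stat3 and Pim1 were 3.86 and 4.88%. Socs3, a STAT3 target and brake, was at 1448 ± 137, Batf at 4395 ± 305 and Bcl3 at 1261 ± 166. Il10 was at a mean of 2.20.

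Of 22 cytokine and chemokine genes 11 were expressed, and Ccl22 made up most of their summed level. Ltb, the membrane-bound lymphotoxin chain, was at 4959.5, 4570.4, 5738 and 5859.8 normalized counts. Ebi3, a subunit of IL-27 and IL-35, was at 3514 ± 346, Tgfb1 at 2774 ± 238, Csf1 at 2313 ± 287, Lta at 773 ± 48.8 and Tnf at 363 ± 41.6. Il6 was low at 53.3, 60.2, 41.7 and 38.2, and Il2, Il4, Il5, Ifng and Csf2, which T cells make, had means of 0.225 to 1.43. Il12b, Il13 and Il21 were listed at 0.

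Homing receptor genes had a median of 930 normalized counts, with 17 of 20 expressed. Ccr7, which guides cells to the T zone, was at 6025, 9012, 9462 and 10025, with Flox 1 apart below the others. Gpr183 (EBI2), which positions cells outside follicles, was at 8113, 8205, 8502 and 8868. Cxcr5, the follicle receptor, and Cxcr4, the receptor of the germinal centre dark zone and the bone marrow, were at 4865 ± 377 and 5334 ± 357. S1pr1, the receptor for exit into blood, was at 153 ± 55.6. Cxcr3, Ccr9 and Cxcr6 had means of 5 or less.

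Germinal centre genes were expressed unevenly: 17 of 18 were expressed, from Cd83 at 32495 ± 1795 normalized counts down to Nuggc at 49.4 ± 18.5. Cd83 and Cd86 mark light zone cells. Bcl6, the factor that sets the germinal centre programme, was at 1155, 1214, 1335 and 1419.5, and Fas was at 4212, 4660.3, 4575 and 4350.4. S1pr2, which holds cells in the follicle, was at 124, 141, 142 and 170.5, and Gcsam, named for its germinal centre expression, was at 116 ± 26.2. Rgs13, another germinal centre gene, was at a mean of 3.08. Fas and Bcl6 were thus above 1000 in every library in which S1pr2, Gcsam and Rgs13 were low.

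All 32 matched genes of the class switch list were expressed, with a median of 1840. Prkar1a, the regulatory subunit of protein kinase A, was at 19074 ± 661 and the transcription elongation factor Supt5 at 6938 ± 402. For uracil and mismatch processing, Ung was at 2153 ± 135, Apex1 at 5132 ± 464 and Msh6 at 6316 ± 441. The break sensors Atm, Trp53bp1 and Rif1 were at 1890.0 ± 289.8, 1791 ± 95.3 and 3234 ± 532, and the end-joining genes Xrcc6, Xrcc5, Xrcc4 and Lig4 at 1919 ± 129, 1369 ± 38.3, 544 ± 14.8 and 353 ± 47.8. Genes of uracil and mismatch processing, break sensing and end joining were thus read in all libraries.

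Plasma cell genes were present over a wide range: 14 of 15 were expressed, with a median of 1999 normalized counts. Irf4 was at 19122, 19920.2, 17630.1 and 17829.5, Xbp1, which expands the secretory machinery, at 25128, 24018, 27504 and 28229 and Slamf7 at 20654, 19935, 18012 and 17499.9. Mzb1, a chaperone of the endoplasmic reticulum in B cells, was at 26809, 30254, 38452 and 42055, and Jchain, the joining chain of secreted IgM and IgA, was at 6921, 7242, 13192 and 13888. Jchain and Mzb1 were lower in Flox 1 and 2 than in Flox 3 and 4, while Irf4 and Slamf7 were higher in Flox 1 and 2. Prdm1 (Blimp-1), the factor that commits cells to secretion, was at 710.0, 599, 1069 and 1071 and the surface proteoglycan Sdc1 (CD138) at 231, 274, 348 and 392, both also below in Flox 1 and 2. Tnfrsf17, the survival receptor BCMA, was at a mean of 2.13. The median CV of the list was 18.9%, against 7.78% over all expressed rows with a mean of at least 100.

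Genes of cell division were all expressed, 30 of 30 for DNA replication with a median of 3501 normalized counts and 25 of 25 for mitosis with a median of 3857. The replicative helicase subunits stood first: Mcm6 at 25219, 26257, 25330.1 and 24272, Mcm3 at 16736 ± 819.7, Mcm5 at 11686 ± 668, Mcm4 at 9323 ± 690.1, Mcm7 at 6900.2 ± 215 and Mcm2 at 6262 ± 187. The reductase genes Rrm1 and Rrm2, which supply deoxynucleotides, were at 15998 ± 2176 and 8002 ± 509.9, and the sliding clamp Pcna at 6643 ± 371. Lowest were Orc1, Gins3 and Gins1, at 824 ± 142, 808 ± 76.6 and 783 ± 41.4. In mitosis, Top2a, which untangles chromosomes, was at 30203, 26589.9, 23173 and 20801 and the spindle motor Kif11 at 9328, 8492, 7572 and 7331. The levels of Top2a, Mki67 and Kif11 were highest in Flox 1 and lowest in Flox 4. Ccna2, Cdk1 and Ccnb1 were at 9123 ± 726, 7108 ± 176 and 1479.8 ± 16.3.

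E2F factors switch on replication genes. Their core letters TTGGCGC, searched on both strands, stood in 3.35% of all matched promoters, in 437 of 9347 from expressed rows, and in 6 of 24 matched DNA replication genes: Mcm6, Mcm3, Mcm5, Mcm7, Cdt1 and Pola1. Among 21 matched mitosis genes, Mki67, Cdk1 and Ccnb1 held it. The letters CCAAT, the site of the factor NF-Y, stood in 39.1% of all matched promoters, in 15 of the 24 replication genes and in 17 of the 21 mitosis genes. A match is a run of letters and not a bound site. The Mcm6 promoter, the highest of the replication genes, is printed with its 2 E2F cores in capitals (chr1:128359656-128359955, minus strand, GRCm38.p6, RefSeq).
Mcm6: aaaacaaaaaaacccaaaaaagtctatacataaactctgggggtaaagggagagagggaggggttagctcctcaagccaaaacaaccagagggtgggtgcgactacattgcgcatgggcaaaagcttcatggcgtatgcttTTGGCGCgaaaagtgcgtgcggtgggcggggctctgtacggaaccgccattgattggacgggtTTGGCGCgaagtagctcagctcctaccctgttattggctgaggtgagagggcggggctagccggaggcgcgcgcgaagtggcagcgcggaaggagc

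The Mki67 promoter held 3 CCAAT boxes within 300 bases, in capitals where they read CCAAT or, on the other strand, ATTGG (chr7:135716330-135716629, minus strand).
Mki67: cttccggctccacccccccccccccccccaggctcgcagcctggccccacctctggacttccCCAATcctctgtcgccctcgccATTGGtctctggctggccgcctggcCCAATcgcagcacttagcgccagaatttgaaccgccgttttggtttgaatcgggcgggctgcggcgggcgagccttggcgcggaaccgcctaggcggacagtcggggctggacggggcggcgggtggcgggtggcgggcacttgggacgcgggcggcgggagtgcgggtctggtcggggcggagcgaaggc

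Among G1 genes some family members were read and others hardly were. Ccnd2, the D cyclin that B cells use on stimulation, was at 15769.5, 18295, 14988 and 14180.5 normalized counts and Ccnd3 at 2201, 2002, 2605 and 2953, while Ccnd1 was at a mean of 2.55. Myc was at 8090.2, 7672, 6912 and 7273, and Mycn was at a mean of 1.1. Cdk4 was at 12823 ± 800.4 and Cdk6 at 396 ± 70.7. Of the inhibitors, Cdkn1b (p27) and Cdkn1a (p21) were at 3251, 3527, 4186 and 4329 and at 3004, 3742, 3608 and 3435, and Cdkn2a at 192 ± 40.9. Of 21 genes 19 were expressed. Replication-dependent histone genes, whose messengers end in a stem-loop in place of a poly(A) tail, were low: 25 of 64 rows were expressed, none reached 1000, and Hist1h4i was the highest at 338, 336, 236 and 308. The labels call the RNA total RNA and do not give the selection step of the library. Why these histone rows were low was not tested.

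Of 25 genes of survival and death 23 were expressed. The protective Mcl1 was at 16919.8, 15252, 16583 and 15800.5 normalized counts, Bcl2l1 (BCL-XL), a target of CD40 signals, at 7085, 8637, 7951 and 7944 and Bcl2 at 2836 ± 375. On the killing side Bax and Bak1 were at 7467 ± 265 and 3316 ± 66.8, and the sensors Bcl2l11 (BIM), Pmaip1 (NOXA) and Bbc3 (PUMA) at 7798 ± 692, 3079.8 ± 269 and 1905 ± 210.0. Both sides of the family were thus read together. Fasl and Hrk had means of 1.63 and 0.25. The summed level of the list was nearly the same in all 4 libraries, from 94606 to 95622.

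Genes of the unfolded protein response and the endoplasmic reticulum stood high, all 23 expressed with a median of 11982 normalized counts. The chaperones Hsp90b1 (GRP94), Hspa5 (BiP) and Calr were at 66546, 57823, 56992 and 51229, at 54462, 51269.8, 58119 and 54624 and at 53568, 45439, 45228 and 42637. Pdia3, Pdia4 and Pdia6, which form disulfide bonds, were at 28399 ± 2614, 11982 ± 538 and 17992 ± 1258, and the translocon subunit Sec61a1 at 12445 ± 748. Among the sensors, Atf6 was at 7211 ± 476, Eif2ak3 (PERK) at 2676 ± 105 and Ern1 (IRE1) at 599 ± 51.0, the lowest of the list. Atf4 and Ddit3 (CHOP), factors of the stress arm that can lead to cell death, were at 21311 ± 551 and 2325 ± 323.

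The endoplasmic reticulum stress element is a split motif, CCAAT and CCACG with 9 bases between them, read by NF-Y and ATF6. It stood in 0.168% of all matched promoters on either strand, in 17 of 9347 from expressed rows and in 6 of 19 matched genes of this list, and every one holds a CCAAT by its construction. The elements are shown because the letters between the ends differ from gene to gene; capitals mark the fixed ends, and each is written on the strand that reads CCAAT first, with the distance from its far end to the start of the gene.
Hsp90b1, 107 bases before: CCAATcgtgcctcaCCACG
Hsp90b1, 212 bases before: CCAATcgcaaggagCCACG
Hspa5, 65 bases before: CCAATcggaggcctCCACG
Calr, 162 bases before: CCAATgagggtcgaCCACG
Canx, 145 bases before: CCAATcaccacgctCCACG
Pdia6, 98 bases before: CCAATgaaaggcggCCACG
Creld2, 126 bases before: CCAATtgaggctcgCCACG
Outside the list, expressed genes with the element included Syvn1, Dnajc3 and Derl3, which also serve protein quality control in the endoplasmic reticulum, at means of 5471, 5405 and 1099.8 normalized counts. Hnrnpa3, an RNA-binding protein, and Pan2, a subunit of a deadenylase, held it too, at 946 and 909. The Hspa5 promoter is given whole, with its element in capitals (chr2:34771840-34772139, plus strand, GRCm38.p6).
Hspa5: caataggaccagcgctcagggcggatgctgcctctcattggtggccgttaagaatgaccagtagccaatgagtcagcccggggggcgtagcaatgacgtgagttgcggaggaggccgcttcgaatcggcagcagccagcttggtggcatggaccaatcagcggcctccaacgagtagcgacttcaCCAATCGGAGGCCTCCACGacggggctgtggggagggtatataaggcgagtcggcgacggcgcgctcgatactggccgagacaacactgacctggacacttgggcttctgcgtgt

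Antigen presentation genes were all expressed, 18 of 18 with a median of 16499 normalized counts, and held 2.69 ± 0.30% of reads. The class II chains H2-Aa, H2-Ab1 and H2-Eb1 were at 82892, 86799, 105748 and 109510.0, at 84968, 76624, 90263 and 97936 and at 61591, 57876, 73281 and 76261. Each was higher in Flox 3 and 4 than in Flox 1 and 2. Their master regulator Ciita was at 7209 ± 443, and the peptide editors H2-DMa and H2-DMb2 at 33102 ± 4139 and 20920.5 ± 1939. H2-Ob and H2-Oa, chains of the molecule that restrains H2-DM, were at 10194 ± 1896 and 4276 ± 722. For class I, B2m was at 54517, 59066, 61205 and 64128 and H2-K1 and H2-D1 at 50141 ± 2526 and 32694 ± 1653, with the peptide pump subunits Tap1 and Tap2 at 8502 ± 858 and 6504 ± 368.

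Glycolytic genes were expressed in 22 of 23 cases, with a median of 4064 normalized counts. Pkm, Ldha and Aldoa were at 52074, 50916, 56508 and 59363, at 48869.7, 38574, 45283 and 45272 and at 36687, 36466, 44757 and 49602. The glucose carrier Slc2a1 (GLUT1) was at 4178 ± 267 and the hexokinases Hk1 and Hk2 at 4121 ± 65.9 and 4573 ± 534. Ldhb, the other lactate dehydrogenase chain, was at 47.1 ± 15.9. Gapdh, at 842 ± 75.8, and Pgk1, at 2219 ± 819, have many near-identical pseudogene copies, so their low values are uncertain. Cytoskeletal genes were all expressed, with Coro1a, Pfn1 and Lcp1 at 39473 ± 4332, 37739 ± 2447 and 33289 ± 3619, and Actg1 at 53.4 ± 5.43, another gene with close copies.

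Translation factors had a median of 18499.8 normalized counts, all 20 expressed, and their summed level was within 1% of its mean in every library. The members were less even, with a median CV of 9.29%. Of the 20, 9 were higher in both Flox 1 and 2 than in both Flox 3 and 4, and 4 were the reverse. Eef1a1 rose from 97025 in Flox 1 to 149867 in Flox 4. Nucleolin (Ncl), which the list and its sum include though it is no translation factor, fell from 108129 to 71817. Cytosolic ribosomal proteins held 4.18 ± 0.43% of reads, with 83 of 84 rows expressed. Rpl4, the highest, was at 135668, 143800.0, 155043 and 147945, but Rpl24, Rps27 and Rps29 were at 29.1, 36.5 and 55.2. Each of these proteins is a standard part of the ribosome. Of the 29 ribosomal rows under 1000, 22 had at least 1 pseudogene row named after them in the table, with a mean of 4.79 over the 29. Of the 29 rows at 10000 or more, 16 had one, with a mean of 1.90. The part of shared reads in these low values was not tested.

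Of 13 mitochondrial messengers 7 were expressed and held 1.78 ± 0.10% of reads. These genes have no introns, so levels per kilobase can be given: mt-Co1 was at 137535 normalized counts per kb, mt-Nd1 at 105313, mt-Cytb at 82030, mt-Nd2 at 33068, mt-Nd5 at 27520 and mt-Nd4 at 24471. mt-Nd6, the one on the other strand, was at 1224. The library ranges per kb of mt-Co1, of mt-Nd1 and of mt-Cytb did not overlap, at 128475 to 140928, at 99238 to 115299 and at 69183 to 94703. mt-Co2, mt-Co3, mt-Atp6, mt-Atp8, mt-Nd3 and mt-Nd4l were listed at 0. Since every cell uses these genes, a value of 0 in this table does not show that a gene was silent. Whether the 7 expressed messengers also lack part of their reads was not tested. Their share and their order per kb are therefore of the reads counted, and may not be those of the transcripts.

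**Figure D3:**
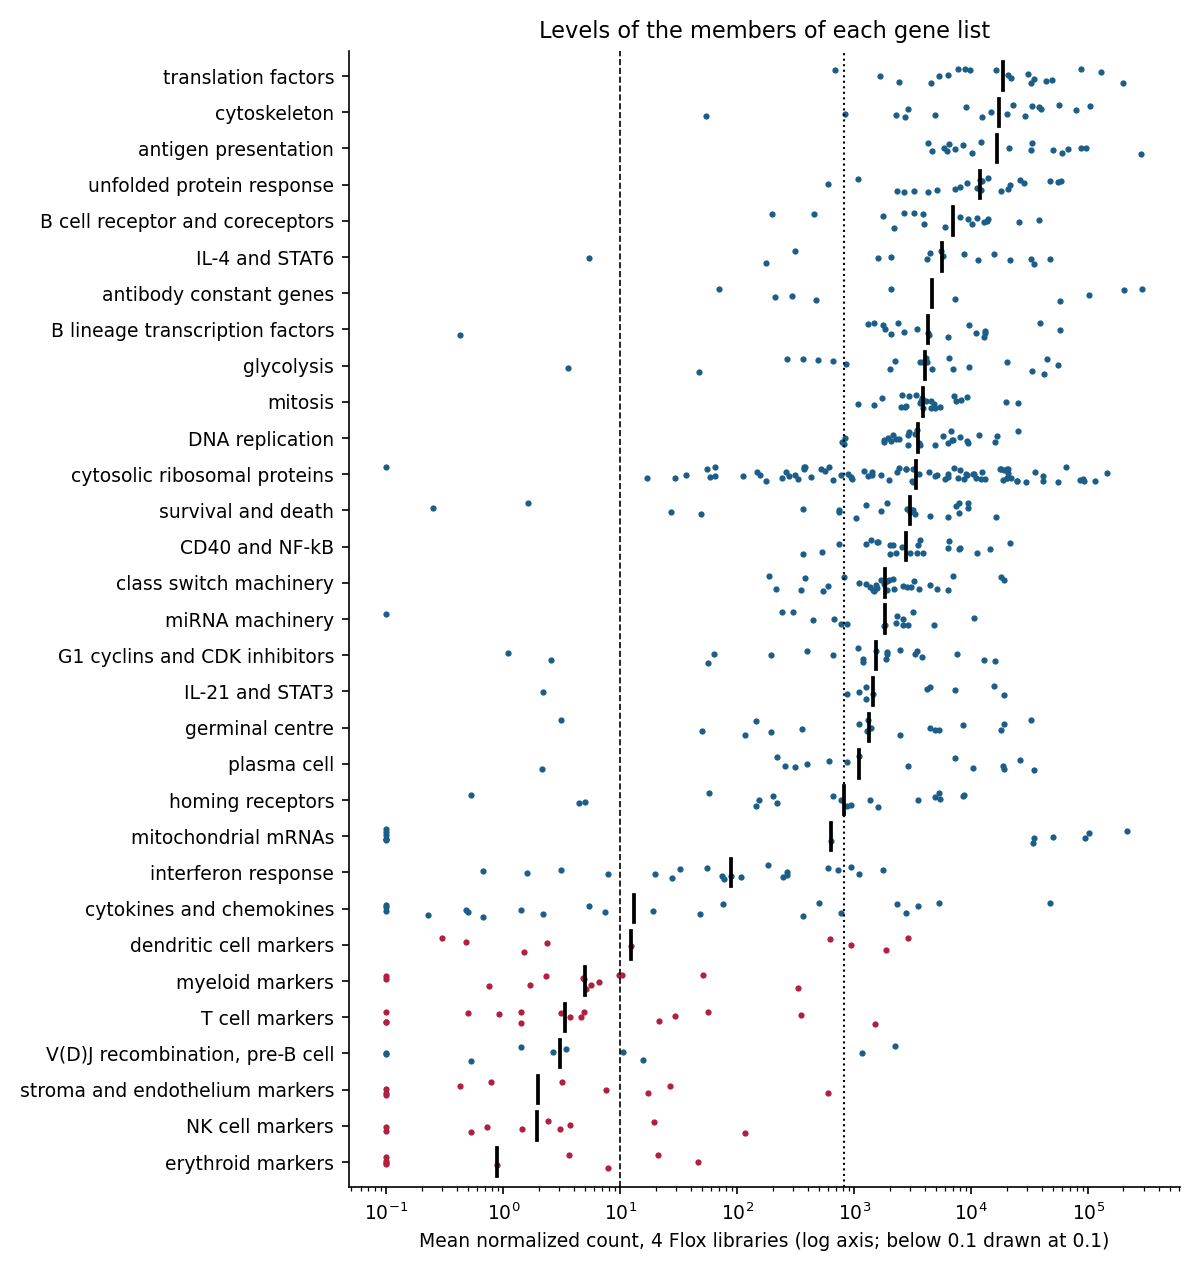
Mean normalized count (log axis; values under 0.1 drawn at 0.1) of each member of the gene lists with at least 2 expressed members, 1 point a gene, with the median over all matched members as a bar, a dashed line at 10 and a dotted line at 822, the median of all expressed rows. Lists of other cell types, in red, have medians near or under the dashed line, and translation factors, cytoskeleton and antigen presentation stand highest.

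The highest row that was neither protein-coding nor immunoglobulin was Gm42418, annotated as long intergenic RNA (chromosome 17, 39846958 to 39848788), at 120739, 111288, 189347 and 148407 normalized counts. The row Lars2 was at 5391, 5721, 10206 and 8069, and the miRNA gene rows Gm23935 and Mir6236 at 1796, 2364, 4077 and 3069 and at 1454, 1824, 2086 and 1856. All 4 were highest in Flox 3; whether they share a source was not tested. mt-Rnr2 and mt-Rnr1, the mitochondrial ribosomal RNAs, were at 30513, 30598, 31257 and 29060.5 and at 16563, 16640.3, 17852 and 17462. Gas5, which hosts small nucleolar RNAs, was at 13016, 15986, 14688 and 14063. Mir155hg, the host transcript of miR-155, was at 2960.2, 3470.1, 2589 and 2223, so this B cell activation gene was read in every library. The rest of the 10 highest were Cct6a, AI662270 and 2410006H16Rik, at means of 10581, 8944 and 8015 and annotated as processed transcripts, and 3 rows without annotation. Brip1os, at 2109.7, 2061, 2006 and 1942, was the highest antisense row, and without stated strand counting its reads cannot be told from those of an overlapping gene.

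Rows of miRNA genes count reads over the hairpin gene and are no measure of the mature miRNA. Mir221 had 0, 0, 3 and 1 reads and Mir222 none in any library, which allows up to 3 reads in each. Mir155 had no read beside its well-read host transcript. The mature sequences are given because the study is built on the first pair, which share a seed, bases 2 to 8, in capitals; that of miR-155 differs.
miR-221-3p: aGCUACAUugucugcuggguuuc
miR-222-3p: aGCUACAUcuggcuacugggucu
miR-155-5p: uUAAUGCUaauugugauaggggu
The machinery that makes and uses miRNAs was expressed in 16 of 17 genes, with Lin28b listed at 0. Ago2, the slicing Argonaute, was at 4687, 5090.4, 4461 and 4779 normalized counts, with Ago1 at 2605 ± 226, Ago3 at 443 ± 33.3 and Ago4 at 242 ± 17.4. Ddx6 was at 11002, 11231, 10228 and 9686, and the processing enzymes Dicer1 and Drosha at 3186, 2947, 2635 and 2679.9 and at 2263, 1978, 1483 and 1495. Drosha, Dicer1 and Ddx6 were each lower in Flox 3 and 4 than in Flox 1 and 2. Lin28a, which blocks let-7 maturation and is best known from stem cells, was at 1004, 941, 728 and 775.

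Genes that mark other cells were mostly at or near 0. T cell markers were expressed in 5 of 16 cases, and their summed level was 1774 to 2144 normalized counts. Lck, at 1399, 1443, 1554 and 1599, made up most of that sum, and Cd28 was at 268, 376, 367 and 380.2. Cd5 and the kinase Zap70 had means of 55.55 and 29.45. Of the genes of the T cell receptor complex, Cd247 was at 15, 22.7, 26.6 and 21.7. Cd3d, Cd3e and Cd3g had means of 4.88, 4.58 and 1.43. Trac had a mean of 3.675, and Trbc1 and Trbc2 were listed at 0. Cd4 and Cd8a had means of 1.4 and 3.075, and Cd8b1 was listed at 0. As for the mitochondrial messengers, a listed 0 does not show that a marker gene was silent. Whether T cells were present was not tested.

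Myeloid markers were expressed in 3 of 14 cases, with a summed level of 368 to 493 normalized counts, led by Cd68 at 249, 328, 340.4 and 389.5. Lyz2 and Csf1r had means of 9.80 and 5.55. Neutrophil and mast cell markers were expressed in 0 of 9 and 0 of 6 cases, and NK cell markers in 2 of 10, Prf1 at 93.9, 96.0, 138 and 134 and Eomes at 19.5 ± 3.76. Among dendritic cell markers 5 of 9 were expressed, with a summed level of 5869 to 6728. Flt3 at 2696, 3103, 2780.1 and 2832 and Zbtb46 at 1694, 1999, 1866 and 1897 led them, while Xcr1, Clec9a, Siglech and Cd209a had means of 0.30 to 2.35. Bst2 and Batf3 came next, and 4 of the 9 dendritic cell markers were at 100 or more. Whether dendritic cells were present was not tested. Erythroid markers were expressed in 2 of 9 cases, platelet markers in 1 of 6 and stromal and endothelial markers in 3 of 10, led by Pecam1 at 598 ± 67.8. Hbb-bs, Hba-a1 and Hba-a2 were listed at 0, and Hbb-bt was at 46.1 ± 13.3. Summed NK cell markers were at 118, 123, 183 and 163 in Flox 1 to 4, and summed myeloid markers at 368, 392, 464 and 493. Both sums, and that of T cell markers, were higher in Flox 3 and 4 than in Flox 1 and 2, as were the summed levels of antibody constant and plasma cell genes. Their part in those levels was not tested.

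Precursor B cell genes were low, with 4 of 10 expressed. Rag1 and Rag2, which cut DNA for antibody gene assembly, were listed at 0, and Dntt and Igll1 had means of 1.43 and 0.525. Cd93 was at 2177, 2502, 2117 and 2096 normalized counts and Vpreb3 at 894, 1038, 1156 and 1522. Interferon response genes had a median of 183 over the 17 of 21 expressed, the 27.7th percentile of expressed rows. Stat2 was at 1767 ± 68.9. Isg15 and Ifit1 were at 162, 287, 303 and 318 and at 149, 284, 274 and 282, both lowest in Flox 1, and Ifit3 had a mean of 3.08.

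Most coding genes had like levels in the 4 libraries. Over 9673 protein-coding rows with a mean of at least 100, the median CV was 7.58%, and 10% of rows had a CV under 3.34% and 10% over 15.8%. Counting alone gives a median of 2.60%, and the median CV left after the counting variance was taken off was 6.82%. Only 75 rows (0.775%) had a highest library over 2-fold its lowest, and 85 (0.879%) had a CV over 30%. The spread fell with level and then stayed even: the median was 9.26% from 100 to 1000 normalized counts, 6.72% from 1000 to 10000 and 6.60% above. Counting alone gives medians of 4.51, 2.03 and 0.795% in these classes.

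Psma6, a proteasome subunit, had the lowest CV, 0.303%, at 9083, 9098, 9074 and 9034 normalized counts. The peroxisomal protease Tysnd1 followed at 930.1, 932, 925 and 931 with 0.319%. The next were Dnajc5, Elmo2, Poldip3, Gid4, Tia1, Prr12, Gstcd, Cyfip1, Snrk and Lrrc47, with CVs up to 0.710%. In all, 699 rows (7.23%) had a CV below the value counting alone gives, and these 12 were among them. Their CVs therefore do not mark them as steadier than other such rows. At the other end, Rpl39l was at 961, 59.3, 12.7 and 3.10 with a CV of 181%, nearly all of it from Flox 1. Rps27rt, a retrogene named after Rps27, and the predicted genes Gm2000 and Gm9843 were at 17.3, 55.8, 97.3 and 328, at 38.3, 106, 177 and 576 and at 93.9, 245, 435 and 1219, lowest in Flox 1 and highest in Flox 4. The pseudogene rows Gm11478 and Rpl31-ps8 had the same order, at 86.4, 251, 518 and 1358 and at 65.4, 174, 220.0 and 756. Retrogenes and pseudogenes can share reads with their parent genes, so these values are uncertain.

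Mtus2 was at 384, 87.3, 108 and 53.7 and Cobl, an actin nucleator, at 551, 202, 141 and 189, each highest in Flox 1. Smoc1, a secreted matrix protein, was at 10.5, 279, 141 and 195, with Flox 1 far below the others, and Prdm16 at 124, 52.4, 168 and 284. The antisense row Gm15564 was at 463, 649, 2049.5 and 2109, about even in Flox 3 and 4 and far lower in both Flox 1 and Flox 2. The rest of the 12 most variable rows were Usp44, Zfp951, Rps16 and Xlr4a. Gm15564, Zfp951 and Rps16 were also lowest in Flox 1 and highest in Flox 4.

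**Figure D4:**
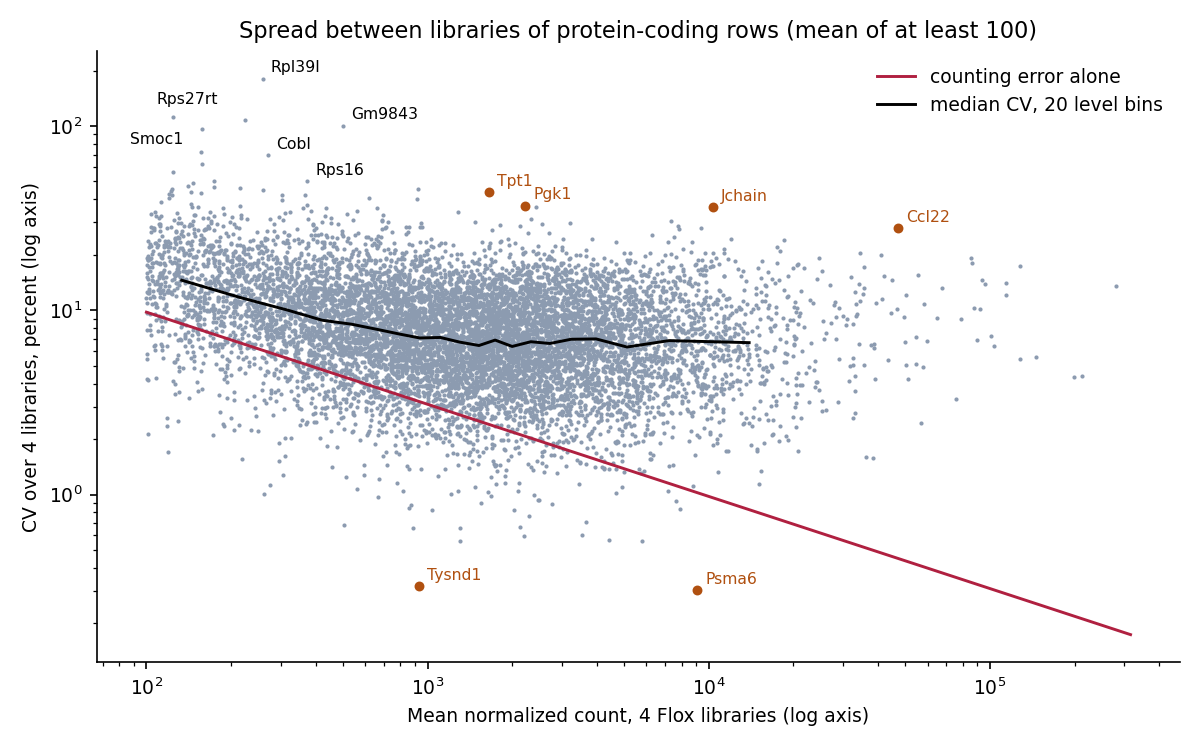
CV over the 4 libraries (percent, log axis) of the 9673 protein-coding rows with a mean of at least 100, against their mean normalized count (log axis), with the median in 20 bins of level and the CV that counting alone gives. Most rows lie between 3.34 and 15.8%, and Rpl39l, Rps27rt, Gm9843, Smoc1, Cobl and Rps16 stand above.

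Flox 1 and 2 were the 2 highest libraries in 34.3% of the 9673 protein-coding rows and Flox 3 and 4 in 27.9%, and each of the other 4 possible pairs in 8.33 to 10.8%. Of the 100 most variable rows, Flox 3 and 4 were the higher pair in 49 and Flox 1 and 2 in 30. Summed antibody constant genes were at 83.6, 85.2, 110.0 and 121% of their mean in Flox 1 to 4, and 5 of the 10 were higher in both Flox 3 and 4 than in both Flox 1 and 2, none the reverse. Antigen presentation genes were at 91.7, 90.1, 105 and 113%, with 17 of 18 members higher in Flox 3 and 4. Plasma cell genes were at 91.4, 94.1, 105 and 109%, but their members were mixed: 8 of 14 expressed genes were higher in Flox 3 and 4 and 3 in Flox 1 and 2, among these Irf4 and Slamf7. Cytosolic ribosomal proteins were at 86.9, 97.3, 107 and 109%. Of their 83 expressed rows, 46 were higher in Flox 3 and 4 and 6 in Flox 1 and 2. Homing receptor and glycolytic genes had 11 of 17 and 13 of 22 expressed members higher in Flox 3 and 4. The reverse held for 2 and 3. In the other direction, mitosis genes were at 113, 101, 94.0 and 92.1%. Of these 25 genes, 17 were higher in Flox 1 and 2 and 1 in Flox 3 and 4. DNA replication genes were at 107, 101, 96.2 and 96.1%, with 21 of 30 higher in Flox 1 and 2 and 5 the reverse. The miRNA machinery genes were at 107, 108, 91.6 and 92.6%, with 11 of 16 expressed members higher in Flox 1 and 2 and 2 in Flox 3 and 4. Cytokine genes were at 123, 111, 79.4 and 86.6%, which came from Ccl22: without it the list was at 97.5, 98.1, 100.1 and 104%. Sums near even were those of translation factors, survival genes and the B cell receptor list, though members of each lay on both sides. These sides were read from 4 libraries of a single group and carry no test.

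**Figure D5:**
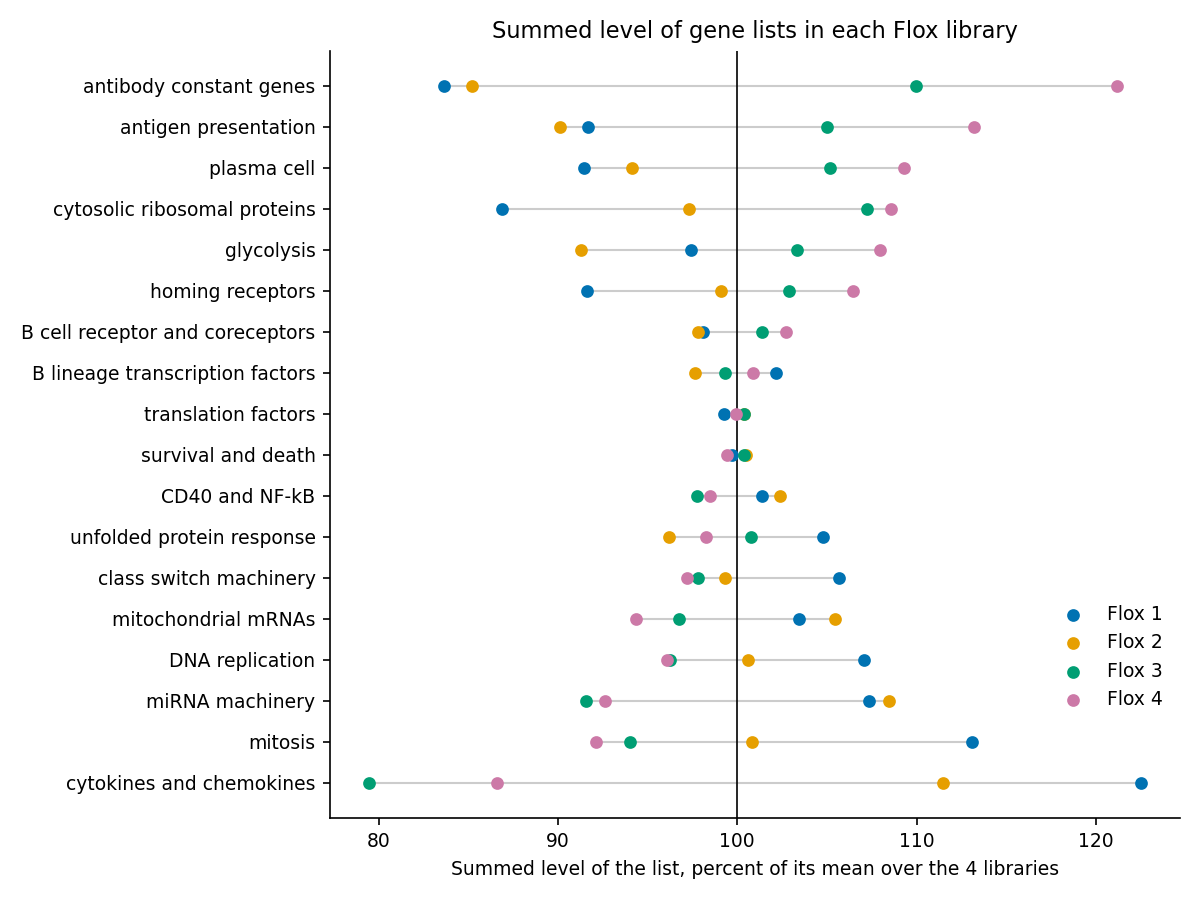
Summed level of 18 gene lists in each Flox library, as a percent of the list's mean over the 4 libraries. Lists with Flox 3 and 4 on the right include antibody, antigen presentation, plasma cell, ribosomal protein, homing receptor and glycolysis genes. Those with Flox 1 and 2 there include mitosis, DNA replication and miRNA machinery genes, and the cytokine list through Ccl22 alone. Translation factors and survival genes lie at 100.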

How the data were processed

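The deposited values are a signal per gene row and library, named normalized counts per the file headers: each library's column rises in steps of 1 constant, which is what counts scaled by the authors with a single factor and kept to 1 decimal would show. Every value of the 4 Flox libraries (100%) was a whole multiple of that constant within 0.1 read, which gave the reads of each library. The deposited percent of GC per gene enters no value given here. The submitters' processing notes list STAR, Bowtie2, cutadapt, SAMtools, DESeq and DESeq2 without a role, and mm9 as the build, while the gene positions are those of GRCm38. The counter, its annotation and its use of strand are not given in the sources used here. The table's other 12 per-sample columns were not used. The 759 rows without annotation (0.181% of reads) stayed in the totals.

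Means, SDs, CVs and shares were computed with pandas 2.3.3 and numpy 2.4.6 in Python 3.11.15, with code tested on simulated data. There is 1 group, so no test was run. Rows to name were the 25 highest protein-coding rows, the 10 highest that were neither protein-coding nor immunoglobulin, the 4 markers, the 4 highest and the lowest member of each list, the 12 highest and 12 lowest CVs among protein-coding rows with a mean of at least 100, and the 5 highest variable segments. Other list members were named by their role after their values were seen, as were Lars2, the miRNA, antisense and pseudogene rows, the rows outside the lists with a motif, and the groups made by symbol (ribosomal, histone, variable). The members and lists were chosen with earlier results of these data known, and motifs were chosen during the work. The highest 15 rows per kb of transcript were planned but not made, since no exon or coding lengths were used here. Promoter and miRNA sequences come from RefSeq (GRCm38.p6). Alternatives were CPM, TMM scaling (edgeR 4.0.16), medians, gene span as a length, other limits, rows left out of totals, and each library left out. Limits from a count of 0 cover counting error only. Some genes are not reported here.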

Additional observations from a re-analysis of the deposited data

Results flagged for a closer look

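Of 175 values looked at in groups of 4 libraries, 7 (4%) had 1 library far from the other 3, where chance gives about 1 in 20. The level of mt-Co1 was 198495 normalized counts in Flox 1, with the others from 216164 to 217733. Cd28 was 267.5 in Flox 1 and 367 to 380.2 in the others. In Flox 1, Ccna2 was high at 10207.5, with the next at 8852, and Msh6 was high at 6970, with the next at 6160. In Flox 2, Fcer2a was low at 31435.1, with the next at 32993.6, and Irf9 was high at 746, with the next at 712.3. The summed level of stroma and endothelium markers was 549.6 in Flox 4, with the next at 676.2. No cause of these was tested.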

How the results depend on the processing

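Of 69 alternative values, 65 moved by no more than the SD between libraries or stayed within 1.5 times the main count or median CV. For marker levels and shares of reads, leaving out 1 of 4 libraries cannot move a mean by more than that SD. Those values were bound to count as unmoved and say nothing about stability. The limit of 1.5 times is wide. The other 4 of the 69 values came from 2 choices. With immunoglobulin and mitochondrial rows left out, protein-coding rows held 98.4% of the remaining reads and the 100 highest rows 17.7%. With expression called from a mean of 1 CPM or of 100 normalized counts, 13 and 9 markers of other cell types counted as expressed in place of 21, while the B cell lists kept 392 and 377 in place of 398. Expressed rows numbered 13090 to 13121 with any 1 library left out and 13089 with all. The 25 highest protein-coding rows shared 24 or 25 rows with those found without any 1 library, and 17 with those ranked per kb of gene span, a measure that counts introns; coding length was not run. TMM factors lay between 0.982 and 1.01. No paired analysis was possible because the results come from 1 group and from no test.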
